A study of Mus musculus with 20 samples.

Results

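The TNF superfamily was read through 30 genes, of 18193 genes with a probe set of their own on the array. They are the genes whose platform symbol begins with Tnfrsf or Tnfsf and a number, together with Tnf, Lta and Ltb, and each was read by the brightest of its probe sets that carry a single symbol. They comprised 19 receptors, 10 ligands and 1 antisense RNA, Tnfsf13os. Names and overall brightness chose them, not a difference between populations, but the family was picked with earlier results of these data known. Of the 30, 27 had a population mean above the median of all values, an intensity of 22.9, and were among the 14044 genes tested. The receptors Tnfrsf10b, Tnfrsf11b and Tnfrsf14 stayed below it in every population and were not tested.

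Gene expression had been measured on Affymetrix Mouse Genome 430 2.0 arrays in 10 sorted populations of haematopoietic cells from mice of C57BL/6 background, with 2 biological replicates each and RNA equivalent to 3000 cells per array. KSL is the usual name for lineage-negative cells that carry Kit and Sca-1, a fraction rich in stem and early progenitor cells, and LinNeg stands for the cells negative for lineage markers as a whole. The mature populations were B (B220(+) B lymphocytes), CD4T and CD8T (CD4(+) and CD8(+) T lymphocytes), NK (sorted as NK1.1+), NKT (CD3ε(+)NK1.1(+)), Erythroblast (Ter119(+)), Neutrophil (Gr-1(+)) and Monocyte (Mac-1(+) monocytes/macrophages). The labels name no treatment and no allele, and they state neither the tissue, nor the age of the mice, nor which animals gave each replicate. The p-values therefore measure the spread between these samples, which may be in part technical.

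TNF superfamily ligands are mostly membrane-bound or shed trimers, and their receptors carry cysteine-rich repeats outside the cell. Receptors with a death domain can recruit adaptors that lead to caspases, and the others bind TRAF adaptors that lead to NF-kB and to survival. In the blood system the family is known for the survival of mature B cells, for costimulation of activated T cells, for the building of lymphoid organs by lymphotoxin, and for inflammation driven by TNF.

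Values below are linear probe set intensities on one scale for all arrays, given as the values of replicates 1 and 2 or as mean ± SD (n = 2). Differences were taken after adding a pseudocount of 6.75 to each intensity and passing to log2, and are given as estimate ± limma standard error, and the pseudocount makes the changes of dim genes look smaller than they are. A difference was called at a Benjamini-Hochberg adjusted p under 0.05 over all genes tested and a log2 difference of 1 or more in size. In cells sorted in bulk, fewer cells that express a gene and less of its RNA in each cell cannot be told apart. The 2 arrays of each population correlated best with each other in 20 of 20 cases, with Pearson r across genes from 0.953 to 0.972. Between 19.45% and 25.31% of probe sets exceeded an intensity of 100, with the lowest shares in Erythroblast. Marker lists were highest where the labels place them, except the macrophage list, with 9 of 9 B cell markers above the median of all values in B and 9 of 9 erythroid markers in Erythroblast. The NK arrays held 11 of 11 NK cell markers above that median, and also 16 of 16 monocyte and macrophage markers at a mean log2 level of 9.57, against 8.40 in Monocyte. NKT replicate 2 held that macrophage list at 7.66 and replicate 1 at 6.20. Monocyte held the neutrophil list at 12.45, near the 13.04 of Neutrophil.

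Several members lie side by side in the genome, and upstream sequences are shown so that neighbours with like and unlike levels over the populations can be set side by side. By the gene order of the RefSeq annotation of GRCm38.p6, Ltb, Tnf and Lta follow each other on chromosome 17, Tnfrsf4 and Tnfrsf18 on chromosome 4, Tnfrsf1b and Tnfrsf8 on chromosome 4, and Tnfrsf22 and Tnfrsf23 on chromosome 7. The 250 bases before the annotated start, from RefSeq on GRCm38.p6, are given 5′ to 3′ on the gene's own strand for the first 2 of these groups. Tnfrsf25 and Tnfrsf9, which like Tnfrsf4 and Tnfrsf18 had their highest mean in CD4T, are given for the 1 of their 2 listed starts whose window holds a match to a motif of the NF-kB type, GGG and TTTCC with any 2 bases between them, searched on both strands. Capitals mark a match.
Ltb (chr17:35194257-35194506, plus strand): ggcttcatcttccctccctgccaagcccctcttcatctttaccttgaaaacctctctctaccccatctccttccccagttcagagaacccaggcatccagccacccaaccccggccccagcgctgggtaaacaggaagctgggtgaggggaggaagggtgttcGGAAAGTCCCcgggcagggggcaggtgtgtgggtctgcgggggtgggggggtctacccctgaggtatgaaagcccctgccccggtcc
Tnf (chr17:35202008-35202257, minus strand): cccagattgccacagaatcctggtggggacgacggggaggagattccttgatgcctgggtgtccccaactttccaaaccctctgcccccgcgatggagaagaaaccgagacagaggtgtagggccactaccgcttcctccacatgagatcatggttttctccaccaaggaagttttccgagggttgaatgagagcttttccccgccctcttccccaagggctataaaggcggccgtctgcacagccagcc
Lta (chr17:35205352-35205601, minus strand): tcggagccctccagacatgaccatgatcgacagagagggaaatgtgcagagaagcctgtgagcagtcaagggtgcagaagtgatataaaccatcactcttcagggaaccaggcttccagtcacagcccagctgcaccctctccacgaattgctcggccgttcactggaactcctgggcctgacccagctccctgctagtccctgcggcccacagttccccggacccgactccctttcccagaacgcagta
Tnfrsf4 (chr4:156013445-156013694, plus strand): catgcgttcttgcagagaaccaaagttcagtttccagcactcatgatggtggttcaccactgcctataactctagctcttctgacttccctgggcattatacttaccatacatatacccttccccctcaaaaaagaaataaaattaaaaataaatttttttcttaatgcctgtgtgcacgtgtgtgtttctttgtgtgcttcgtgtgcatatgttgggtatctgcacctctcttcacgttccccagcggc
Tnfrsf18 (chr4:156026072-156026321, plus strand): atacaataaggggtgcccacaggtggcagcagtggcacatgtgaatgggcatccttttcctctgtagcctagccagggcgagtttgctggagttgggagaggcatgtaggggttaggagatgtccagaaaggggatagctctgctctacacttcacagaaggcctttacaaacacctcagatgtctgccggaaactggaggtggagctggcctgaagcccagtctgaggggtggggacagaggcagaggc
Tnfrsf25 (chr4:152115684-152115933, plus strand): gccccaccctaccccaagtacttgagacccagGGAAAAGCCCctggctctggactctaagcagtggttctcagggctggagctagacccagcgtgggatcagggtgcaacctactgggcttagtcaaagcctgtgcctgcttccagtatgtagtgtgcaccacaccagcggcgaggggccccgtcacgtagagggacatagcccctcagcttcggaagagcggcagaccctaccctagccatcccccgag
Tnfrsf9 (chr4:150927749-150927998, plus strand): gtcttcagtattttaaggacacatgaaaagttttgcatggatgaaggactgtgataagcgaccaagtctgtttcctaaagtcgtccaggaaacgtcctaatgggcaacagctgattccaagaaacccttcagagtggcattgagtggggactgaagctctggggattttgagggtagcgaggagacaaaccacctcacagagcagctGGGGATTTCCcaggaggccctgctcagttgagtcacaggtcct
The match began 87 bases before the start of Ltb and 218 before that of Tnfrsf25, both on the opposite strand, and 43 before that of Tnfrsf9 on the gene's strand. It occurred in 464 of 32851 windows of this length (1.41%) and in 3 of the 28 windows of the 24 members that have one. A match describes letters only, and its absence from the windows of Tnf, Lta, Tnfrsf4 and Tnfrsf18 says only that these letters are not there. All 3 members with a match are among those shown. Tnfsf11, which also had its highest mean in CD4T, has a window without a match that is not shown. The choice of windows therefore says nothing about a link between the motif and a population. The share of G and C ran from 42.8% in the window of Tnfrsf4 to 63.2% in that of Ltb.

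Most members that could be tested varied over the blood system, as most genes did. In the limma F test over the 10 populations 21 of 27 (77.8%) passed, against 76.5% of all genes, so this share is near the background. A narrower pattern was more frequent in the fit used here: 6 members (22.2% of those tested, against 10.6% of all genes) were restricted, that is, called higher in 1 population than in every other. They were the BAFF receptor genes Tnfrsf13b and Tnfrsf13c, where 1.1% of all genes were restricted to B, the receptors Tnfrsf4 and Tnfrsf25 and the ligand Tnfsf11 in CD4T, against 0.278% of all genes, and the receptor Tnfrsf1b in NK, against 0.762%. By highest mean alone, 6 of the 27 stood highest in CD4T, 5 in NKT, 4 in B and 4 in Neutrophil, and 0 in Monocyte. The share of all genes highest in each population was not taken, so these counts have no background. Some of these places were near ties: Ltb in CD4T exceeded NKT by 0.09 on the log2 scale, and Tnfsf13b in Neutrophil exceeded Monocyte by 0.11. The count of restricted members was 4 without CD4T replicate 1. It was lower still with a smaller pseudocount, at the 5th percentile of all values, so the excess over all genes is not settled.

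**Figure D1:**
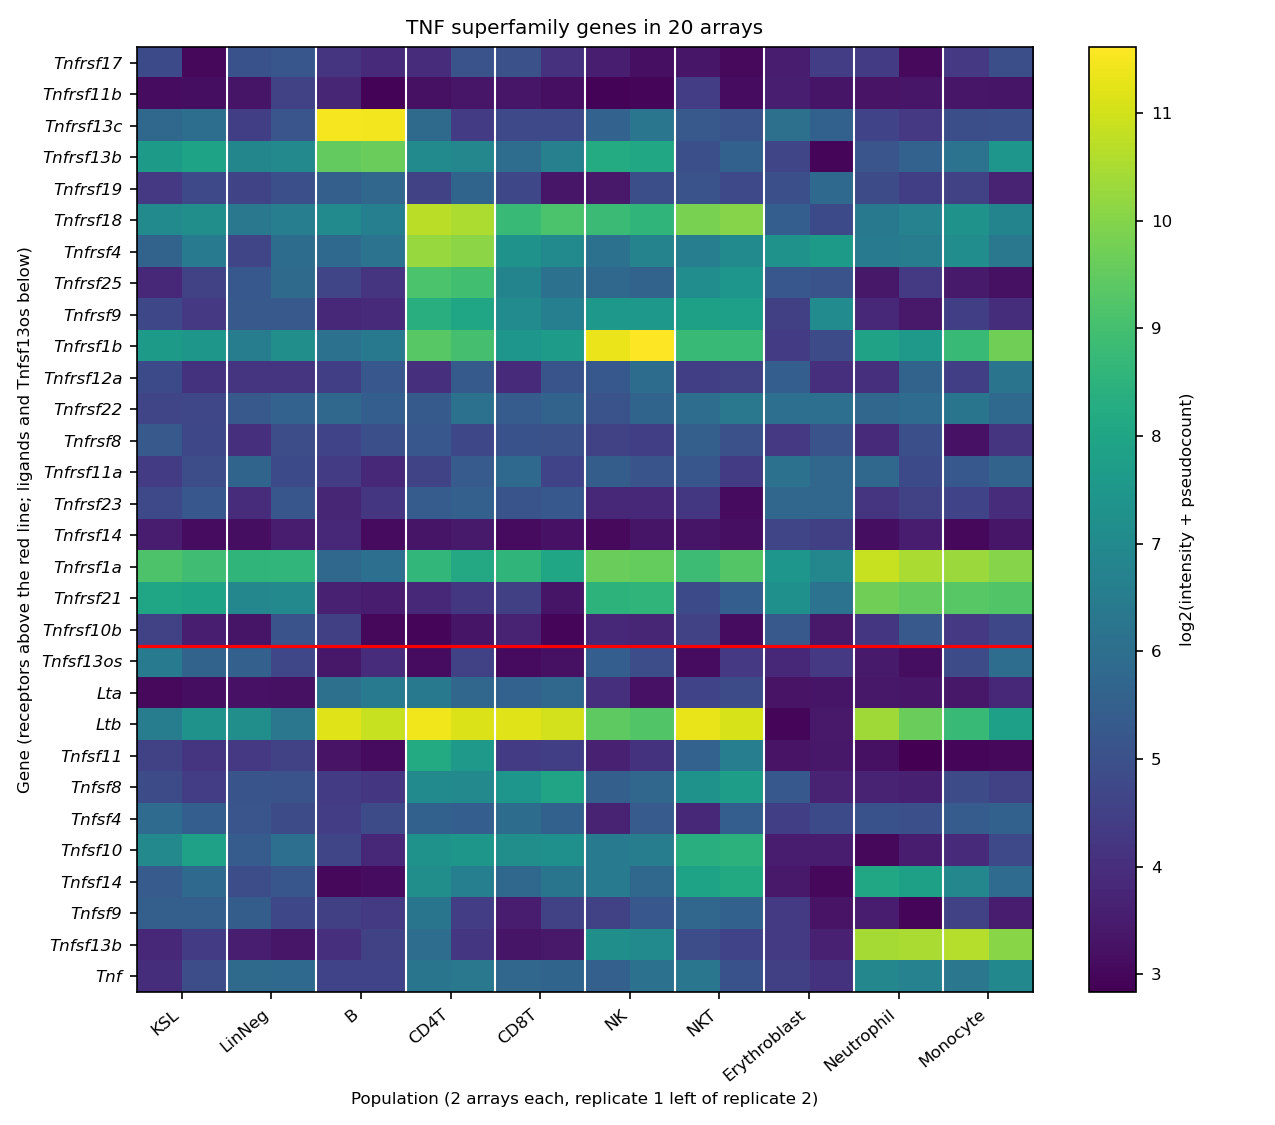
Level of each of the 30 genes in each of the 20 arrays, as log2(intensity + pseudocount), with receptors above the red line and the antisense RNA Tnfsf13os and the ligands below it; each population has 2 adjacent columns, replicate 1 on the left. The bright cells of Tnfrsf13c in B, of Tnfrsf1b in NK, of Tnfrsf4 and Tnfrsf18 in CD4T and of Tnfsf13b in Neutrophil and Monocyte repeat in both replicates, and rows such as Tnfrsf14 and Tnfrsf11b stay dark throughout.

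The B cell survival factors were read as 1 ligand and 3 receptors. Tnfsf13b, which encodes BAFF, the cytokine that keeps mature B cells alive, was at 1370.0 and 1430.1 in the Neutrophil arrays and at 1587 and 1055 in the Monocyte arrays. It stood at 141 and 121 in NK, and in the other populations no array exceeded 55.8, in CD4T replicate 1, with 9.98 and 16.3 in B. Neutrophil and Monocyte arrays overlapped with each other and lay far above all others. The difference between the 5 lymphoid populations and these myeloid ones was -5.48 ± 0.27 (limma adjusted p 1.7e-12). Tnfrsf13c, the BAFF receptor through which that survival signal runs, was at 2874 and 2805 in B and at no more than 71.5 in any array of another population. The next population, NK, was lower by 5.53 ± 0.41 (adjusted p 5e-09). Tnfrsf13b encodes TACI, a second BAFF receptor that restrains B cell responses and also binds the related ligand APRIL. It was at 722 and 776 in B, 295 and 258 in NK, 188 and 235 in KSL and 66.4 and 168 in Monocyte. B was the highest population without overlap, at 1.42 ± 0.44, adjusted p 0.027 over NK. NK and KSL did not differ past the threshold (KSL minus NK -0.38 ± 0.44, 95% interval -1.31 to 0.54). In the NK arrays 7 of 9 B cell markers stood above the median of all values, with a summed intensity of 726 to 974 against 23143 to 26435 in B, and their part in the NK level of Tnfrsf13b was not tested. Tnfrsf17 encodes BCMA, the receptor of plasma cells, and was dim everywhere, with a highest mean of 27.9 ± 1.83 in LinNeg and an F test that missed the threshold (limma adjusted p 0.12).

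Of the lymphotoxin and TNF genes, which lie next to each other, Lta and Ltb had their highest means in B or T cells and Tnf in Neutrophil. Ltb, which encodes the membrane-bound subunit of lymphotoxin that organises lymphoid tissue, was at 2337 and 1876 in B, 2716 and 2278 in CD4T, 2328 and 2082 in CD8T and 2527 and 2156 in NKT. It was at 1308 and 765 in Neutrophil, 683 and 598 in NK, 438 and 213 in Monocyte, 88.1 and 154 in KSL and 136 and 73.2 in LinNeg. In Erythroblast it stood at 1.23 and 3.94. The 4 lymphocyte populations overlapped with each other (CD4T minus NKT 0.09 ± 0.33, 95% interval -0.6 to 0.78), and Erythroblast lay below every other population. Lta, which encodes the secreted partner subunit, was at 61.0 and 83.6 in B, 77.2 and 46.7 in CD4T, 41.0 and 48.0 in CD8T and 17.3 and 21.8 in NKT, and at 9.80 or less in every array of the rest. Its B and CD4T arrays overlapped, and CD4T minus NKT was 1.35 ± 0.39, adjusted p 0.053, so this step in the order was not called. Tnf, the inflammatory cytokine, had its highest means in the myeloid cells, at 113 and 99.6 in Neutrophil and 72.3 and 115 in Monocyte. CD4T followed with 70.0 and 73.9. LinNeg, NK, NKT and CD8T had means from 45.7 to 51.3, and the NKT replicates lay far apart, at 71.4 and 26.3. B (17.3 and 17.5) and Erythroblast (15.7 and 10.4) were low, as was KSL (9.19 and 23.2). Neutrophil and CD4T did not differ past the threshold (CD4T minus Neutrophil -0.52 ± 0.41, 95% interval -1.38 to 0.33).

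The receptors of TNF followed separate orders. Tnfrsf1a encodes TNFR1, the death-domain receptor found on most cells, and its lowest values were 48.3 and 58.5 in B. It was at 1870.1 and 1426 in Neutrophil, 1234 and 1030.0 in Monocyte, 764 and 739 in NK and 564 and 480.1 in KSL. CD4T, CD8T, LinNeg and NKT lay from 313 to 531 in the mean, and Erythroblast was at 139.8 ± 38.2. The B arrays lay below all others, and B minus Erythroblast, the nearest neighbour, was -1.26 ± 0.24 (limma adjusted p 0.00015). Tnfrsf1b encodes TNFR2, which lacks a death domain and signals in lymphocytes and myeloid cells. It was at 2625 and 3128 in NK, 438 and 821 in Monocyte, 633 and 512 in CD4T and 423 and 437 in NKT. It was at 169 and 193 in CD8T, 63.2 and 76.1 in B and 14.5 and 22.5 in Erythroblast. NK stood above Monocyte by 2.24 ± 0.27 (adjusted p 4.3e-06), while CD4T did not differ past the threshold from Monocyte (-0.07 ± 0.27) or NKT (0.40 ± 0.27). The macrophage markers of the NK arrays stand beside this result: Csf1r, the receptor of macrophage colony-stimulating factor, was at 7004 and 5725 in NK and 3737 and 5948 in Monocyte, and Adgre1, which encodes F4/80, at 1481 and 1368 and 221 and 386. Their part in the NK level of Tnfrsf1b was not tested. A further probe set of Tnfrsf1b was dim (28.5 in NKT, its highest mean) and followed the one used with r = 0.18 over the 20 arrays.

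**Figure D2:**
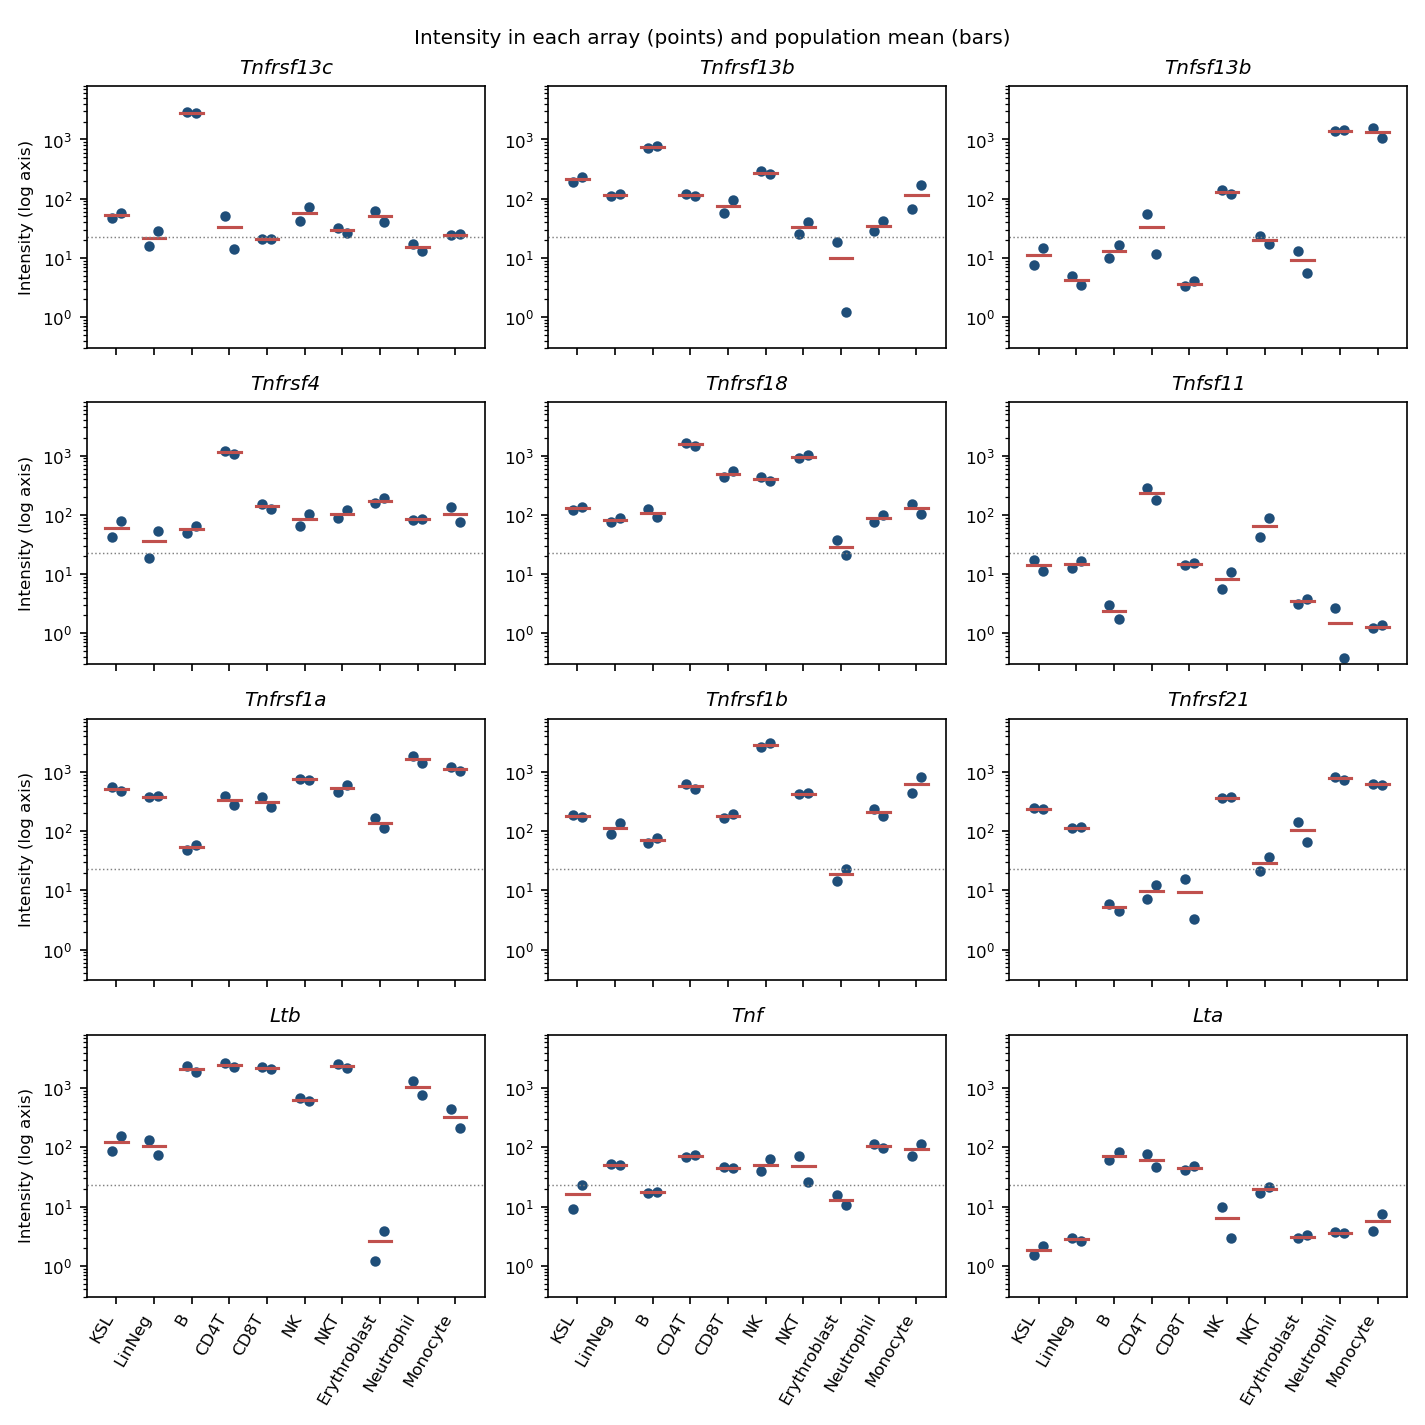
Intensity of 12 members in each array (points, log axis) and the mean of each population (red bars); the dotted line marks 22.9, the median of all values. Both B arrays of Tnfrsf13c lie at 2805 or above, both NK arrays of Tnfrsf1b at 2625 or above, and both Erythroblast arrays of Ltb at 3.94 or below.

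Of 5 costimulatory receptors of T cells, 4 had their highest mean in CD4T. Tnfrsf4, which encodes OX40, a receptor induced on activated CD4 T cells, was at 1217 and 1082 in CD4T, 156 and 192 in Erythroblast, 154 and 125 in CD8T and 88.7 and 122 in NKT. Tnfrsf18, which encodes GITR, a receptor abundant on regulatory T cells, was at 1653 and 1475 in CD4T, 909.5 and 1029 in NKT, 432 and 546 in CD8T and 441 and 373 in NK. In the other populations no array of Tnfrsf18 exceeded 152. These neighbours on chromosome 4 thus shared their highest population by mean but not the next, and of the pair Tnfrsf4 alone was restricted to CD4T (over Erythroblast by 2.68 ± 0.38, limma adjusted p 5.2e-06). For Tnfrsf18, CD4T minus NKT was 0.69 ± 0.25, adjusted p 0.13. Tnfrsf25 encodes DR3, a death-domain receptor that costimulates T cells, and was at 551 and 486 in CD4T, 136 and 167 in NKT, 103 and 64.3 in CD8T and 48.1 and 43.2 in NK. It stood at 13.5 or less in the Neutrophil and Monocyte arrays, and CD4T exceeded NKT by 1.74 ± 0.39, adjusted p 0.011. Tnfrsf9 encodes 4-1BB, a receptor of activated T and NK cells, and was at 319 and 249.9 in CD4T, 219.6 and 215 in NKT, 176 and 177 in NK and 127 and 91.8 in CD8T. The Erythroblast replicates of Tnfrsf9 stood apart at 15.9 and 126. CD4T did not differ from NKT past the threshold (0.37 ± 0.52, 95% interval -0.73 to 1.46). Tnfrsf8, the lymphocyte activation receptor CD30, ran from a mean of 6.89 in Monocyte to 31.9 in NKT and missed the F test threshold (limma adjusted p 0.17).

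The ligands Tnfsf4, Tnfsf8, Tnfsf9 and Tnfsf14 had their highest means outside CD4T. Tnfsf8, the CD30 ligand, was at 168 and 240.4 in CD8T, 153 and 204 in NKT and 123 and 118 in CD4T, with CD8T and NKT overlapping. Tnfsf14, which encodes LIGHT, a ligand of the lymphotoxin beta receptor and of HVEM, was at 236 and 280.2 in NKT, 270.4 and 218 in Neutrophil, 139 and 92.7 in CD4T and 113 and 52.9 in Monocyte. It was lowest in B and Erythroblast, at 1.33 and 1.96 and at 3.96 and 1.33, and NKT and Neutrophil overlapped. Tnfsf9, the 4-1BB ligand, had its highest mean in NKT, at 43.4 ± 4.94, and the CD4T arrays stood apart at 68.4 and 14.6. Tnfsf4, the OX40 ligand, ran from a mean of 18.3 in Erythroblast to 47.3 in CD8T and missed the F test threshold (limma adjusted p 0.18). Tnfrsf14, which encodes HVEM, read 18.9 and 15.7 in Erythroblast and at most 7.21 in any other array. Tnfsf15 and Tnfsf18, the ligands of DR3 and GITR, were not analysed here.

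Tnfsf11, which encodes RANKL, the cytokine that drives osteoclast and lymph node development, was the 1 ligand restricted to CD4T. It was at 288 and 179 in CD4T, 41.7 and 89.6 in NKT and 14.1 and 15.2 in CD8T, and at 17.1 or less in every array of the rest. CD4T exceeded NKT by 1.78 ± 0.41 (limma adjusted p 0.013), without overlap. Its receptor RANK, from Tnfrsf11a, ran from a mean of 10.9 in B to 54.6 in Erythroblast (F test adjusted p 0.11), and its decoy receptor osteoprotegerin, from Tnfrsf11b, stayed at 16.4 or less in all arrays. A second probe set of Tnfrsf11a followed the one used with r = -0.03 over the 20 arrays. Tnfsf10 encodes TRAIL, a ligand that can kill through death receptors. It was at 316 and 348 in NKT, 119.5 and 224 in KSL, 152 and 171 in CD4T, 139 and 145 in CD8T and 83.4 and 84.6 in NK. The Neutrophil, Monocyte, Erythroblast and B arrays held at most 20.5, and neither KSL minus NKT (-0.99 ± 0.39, adjusted p 0.063) nor CD4T minus NKT (-1.01 ± 0.39, adjusted p 0.16) was called. The TRAIL receptor gene Tnfrsf10b stayed at 32.2 or less in all arrays.

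Among the remaining members Tnfrsf21, which encodes the death-domain receptor DR6, was lowest in the B and T cells. It was at 831 and 726 in Neutrophil, 634 and 599 in Monocyte, 358 and 376 in NK, 246 and 236 in KSL and 113 and 118 in LinNeg. It was at 143 and 66.2 in Erythroblast and 21.1 and 37.0 in NKT, and no array of B, CD4T or CD8T exceeded 15.7. The B and T cell arrays thus lay below every other array, and NK minus Monocyte (-0.74 ± 0.36, adjusted p 0.15) and KSL minus NK (-0.59 ± 0.36, adjusted p 0.24) were not called. Its probe set is of the kind marked _s_at, which can bind related transcripts, and a further probe set followed it with r = 0.94 over the 20 arrays. Tnfrsf22 and Tnfrsf23, mouse decoy receptors for TRAIL, ran from means of 19.0 in KSL to 65.3 in NKT and of 7.10 in NKT to 45.9 in Erythroblast. The NKT and Erythroblast arrays of Tnfrsf22 overlapped, so its highest population is not settled. Further probe sets of Tnfrsf22 followed the one used with r = -0.26 and r = 0.36 over the 20 arrays, so its order of populations depends on the probe set. Tnfrsf12a, the receptor of TWEAK, and Tnfrsf19, a receptor also called TROY, had highest means of 42.5 ± 16.2 in NK and 42.4 ± 6.41 in B and missed the F test threshold (limma adjusted p 0.64 and 0.14). The antisense RNA Tnfsf13os was at 80.7 and 42.9 in KSL, 21.8 and 55.8 in Monocyte and 36.8 and 23.0 in NK, with replicates far apart.

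The lymphoid side of the next comparison averages B, the T cells, NK and NKT, and the myeloid side averages Neutrophil and Monocyte. Of 27 members tested 16 differed (59.3%, against 29.4% of all genes). In the lymphoid cells 11 were higher and 5 lower, against 17.4% and 11.9% of all genes, and the median log2 difference was 0.38 over the members and 0.10 over all genes. Of the 10 ligands, 6 were higher and 3 lower, and of the 16 receptors tested, 5 were higher and 2 lower. The receptors Tnfrsf25 (2.98 ± 0.23) and Tnfrsf9 (2.92 ± 0.31) and the ligand Tnfsf10 (2.94 ± 0.23, limma adjusted p 1.4e-09) had the largest rises. Tnfsf8, Tnfrsf18 and Tnfsf11 rose by 2.26 ± 0.24, 2.19 ± 0.15 and 2.07 ± 0.24, and Tnfrsf13c, Lta, Ltb, Tnfsf9 and Tnfrsf13b by 1.16 to 1.79. The myeloid side was higher in Tnfsf13b, Tnfrsf21 (-4.41 ± 0.22), Tnfrsf1a (-2.17 ± 0.14), Tnfsf14 (-1.15 ± 0.22) and Tnf (means of 47.0 against 100.1, adjusted p 0.00065). These are averages over unlike populations: only for Tnfsf13b, Tnfrsf21 and Tnfrsf1a did all lymphoid arrays lie on one side of all myeloid arrays. The share of all genes with such a separation was not taken, so this says nothing about the family as a whole. The call of Ltb ended with Monocyte left out, which was tried only after the data had been seen (0.82, adjusted p 0.011, under the size limit). That of Tnfrsf13b ended with NK left out (0.93, adjusted p 0.0062) and under quantile normalization. With the pseudocount at the median the calls of Tnf, Tnfsf14 and Tnfsf9 ended, and with the mean of all probe sets that of Tnfsf14. Without 1 array the calls of Tnfrsf13b and Tnfsf14 ended when Monocyte replicate 1 was dropped (0.84, adjusted p 0.016, and -0.90, adjusted p 0.0045). Without Monocyte replicate 2 those of Tnf (-0.94, adjusted p 0.0086) and Tnfsf9 (0.98, adjusted p 0.038) ended, and that of Tnf also ended without NKT replicate 2 (-0.98, adjusted p 0.00094).

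**Figure D3:**
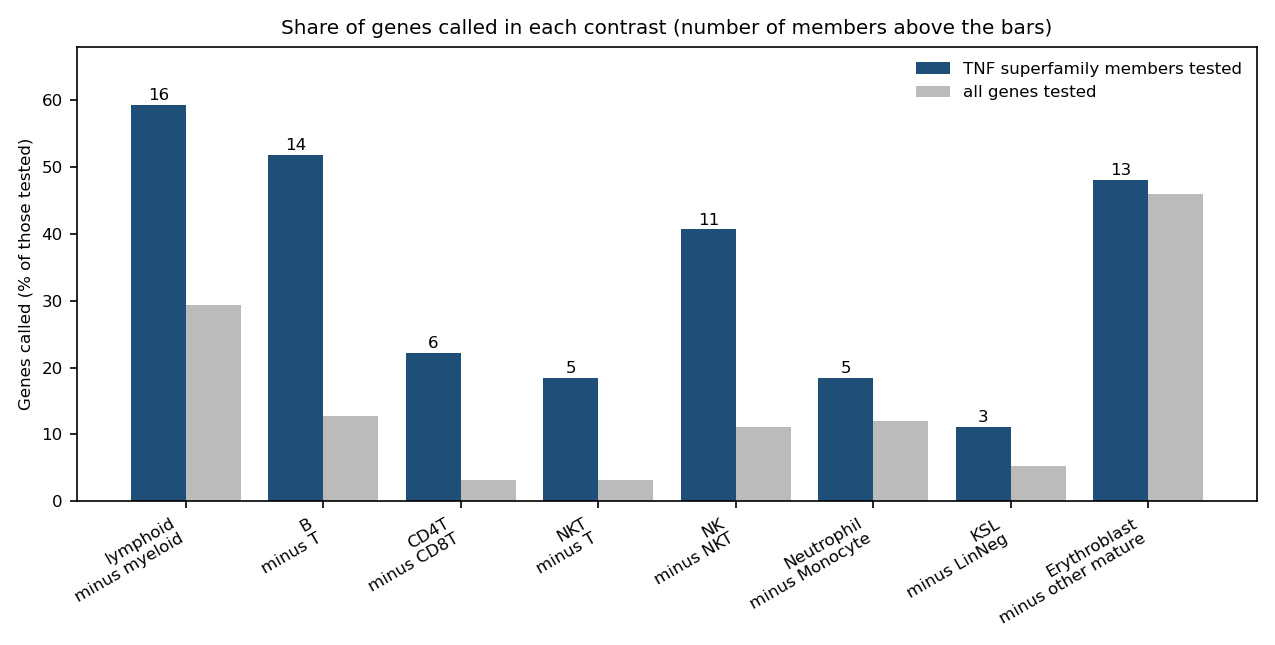
Share of genes called in each comparison, as a percentage of those tested, for the 27 members (blue, with the number of members above the bar) and for all 14044 genes (grey). The members' bar is above that of all genes in every comparison shown, and the gap is smallest for Erythroblast, at 48.1% against 46%. The bars of NKT against T cells (5 members), Neutrophil against Monocyte (5) and KSL against LinNeg (3) rest on few genes. Not all of these calls held when 1 array was left out, so the place of these bars above the grey ones is not settled.

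The B arrays were set against the average of CD4T and CD8T. The B cells had more Tnfrsf13c (6.52 ± 0.35, limma adjusted p 4.6e-11) and Tnfrsf13b (2.93 ± 0.38) and less of 12 other members. In all 14 of 27 were called, 2 higher and 12 lower in B (51.9%, against 12.8% of all genes, 5.82% higher and 7.01% lower), with a median of -0.97 over the members and -0.06 over all genes. Among the receptors Tnfrsf9 (-3.66 ± 0.45), Tnfrsf25 (-3.33 ± 0.34), Tnfrsf18 (-2.95 ± 0.21) and Tnfrsf4 (-2.69 ± 0.33) fell, and so did Tnfrsf1a (-2.44 ± 0.20) and Tnfrsf1b (-2.11 ± 0.23, but -0.89 and not called with the mean of all probe sets). Among the ligands Tnfsf14 (-3.38 ± 0.33), Tnfsf10 (-3.06 ± 0.33), Tnfsf8 (-3.05 ± 0.36) and Tnfsf11 (-2.96 ± 0.36) were lower, with mean intensities from 1.64 to 13.0 in B. Tnfsf11 was high in CD4T and not in CD8T, so its difference is not one from both T cell populations alike. Lta and Ltb were not called, at 0.42 ± 0.34 and -0.16 ± 0.28. Tnf and the decoy receptor Tnfrsf23 fell by 1.41 and 1.31 on the log2 scale. The call of Tnf ended without B replicate 1 (-1.41, adjusted p 0.057) or B replicate 2 (-1.42, adjusted p 0.053). That of Tnfrsf23 ended without B replicate 1 (-1.09, adjusted p 0.22), B replicate 2 (-1.53, adjusted p 0.065), CD4T replicate 2 (-1.27, adjusted p 0.058) or CD8T replicate 2 (-1.28, adjusted p 0.057).

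CD4T and CD8T cells were compared with each other. Here 6 of 27 members were called, all higher in CD4T (22.2%, against 3.16% of all genes, 2.08% higher and 1.08% lower), with a median of 0.39 over the members and 0.02 over all genes. Over all genes 292 were higher and 152 lower in CD4T, or 238 and 194 after centring each array on its median. The members called were Tnfsf11 (3.45 ± 0.41, limma adjusted p 4.5e-05), Tnfrsf4 (2.99 ± 0.38, adjusted p 8.2e-05), Tnfrsf25 (2.57 ± 0.39), Tnfrsf18 (1.67 ± 0.25), Tnfrsf1b (1.62 ± 0.27) and Tnfsf13b (1.71 ± 0.45, adjusted p 0.036). The CD4T arrays of all 6 lay above the CD8T arrays, which a call between 2 arrays and 2 makes likely. Tnfsf13b was dim, at 55.8 and 11.8 in CD4T. Its call ended in 12 of 31 settings run, among them the fits without CD4T replicate 1 (0.83, adjusted p 0.44), CD8T replicate 1 (1.66, adjusted p 0.18), CD8T replicate 2 (1.76, adjusted p 0.13), NK replicate 1 (1.71, adjusted p 0.051) and NK replicate 2 (1.71, adjusted p 0.051). The call of Tnfrsf1b ended with the mean of all probe sets (0.81). Tnfrsf9, Tnfsf9 and Tnfsf8 differed by 1.33 ± 0.52, 1.32 ± 0.56 and -0.71 ± 0.41 and were not called. Markers of regulatory T cells moved in the same direction: 5 of 5 stood above the median of all values in CD4T and 2 of 5 in CD8T, with summed intensities of 5610 to 5794 and of 799 to 1132, and 4 of 5 were called higher in CD4T. Among them Foxp3, the factor that defines those cells, was at 345 and 316 in CD4T and 18.1 and 15.0 in CD8T. The part of these cells in the differences of the members was not tested.

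**Figure D4:**
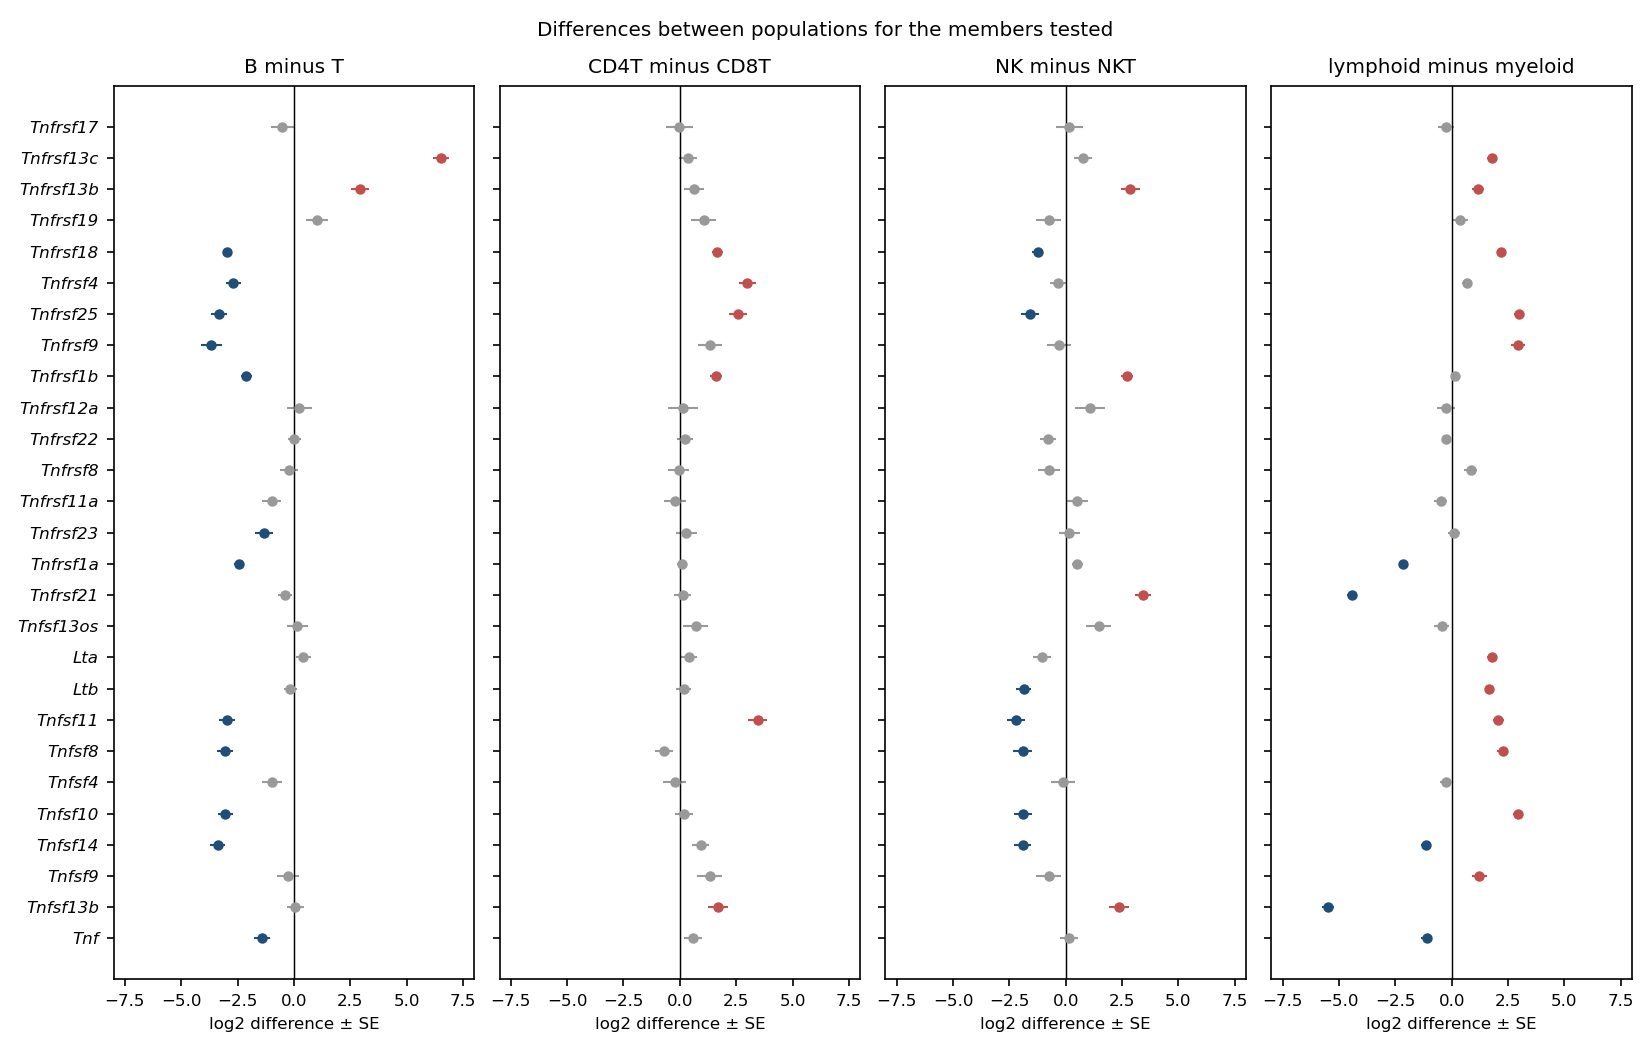
Log2 difference ± SE of each tested member in 4 comparisons, with red for called higher, blue for called lower and grey for not called in the population named first. The panel of CD4T against CD8T has no blue point, and in the B panel Tnfrsf13c (6.52) and Tnfrsf13b (2.93) stand opposite 12 blue points.

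The NKT arrays were set against the same T cell average. Of 27 members 5 were called, 2 higher and 3 lower in NKT (18.5%, against 3.22% of all genes, 1.89% higher and 1.32% lower), with a median of 0.17 over the members and 0.02 over all genes. Tnfsf14 rose (1.59 ± 0.33, limma adjusted p 0.0064) and Tnfrsf4 fell (-1.89 ± 0.33, adjusted p 0.0015). Tnfrsf23 (-1.64 ± 0.40) and Tnfrsf13b (-1.36 ± 0.38) were lower and Tnfrsf21 (1.16 ± 0.32) higher. Tnfsf10 was higher in both NKT arrays than in any T cell array but was not called (adjusted p 0.069). Only the fall of Tnfrsf4 held in every fit that left out 1 array. The call of Tnfsf14 ended without NKT replicate 2 (1.47, adjusted p 0.11). The neutrophil list stood at 4.37 in NKT replicate 1 and 6.62 in replicate 2, where Tnfsf14 was at 236 and 280.2, and at 4.19 in CD4T and 4.20 in CD8T (1 of 10 called, summed intensity 287 to 2163 in NKT, 156 to 179 in CD4T and 149 to 200.3 in CD8T), and its part in the level of Tnfsf14 was not tested. That of Tnfrsf23 ended without CD4T replicate 2 (-1.60, adjusted p 0.06), CD8T replicate 1 (-1.67, adjusted p 0.051) or NKT replicate 2 (-1.06, adjusted p 0.37). The calls of Tnfrsf13b and Tnfrsf21 ended in 22 and 19 of 31 settings run, among them without NKT replicate 1 (-1.06, adjusted p 0.34, and 1.49, adjusted p 0.059) and without NKT replicate 2 (-1.65, adjusted p 0.12, and 0.83, adjusted p 0.41). The call of Tnfrsf13b also ended without KSL replicate 1, KSL replicate 2, LinNeg replicate 1, LinNeg replicate 2, B replicate 1, B replicate 2, CD4T replicate 1, CD4T replicate 2, CD8T replicate 1, CD8T replicate 2, NK replicate 1, NK replicate 2, Neutrophil replicate 1 or Neutrophil replicate 2 (-1.53 to -1.19, adjusted p 0.052 to 0.13). That of Tnfrsf21 also ended without KSL replicate 1, KSL replicate 2, LinNeg replicate 1, LinNeg replicate 2, CD4T replicate 1, CD4T replicate 2, CD8T replicate 2, NK replicate 1, NK replicate 2, Neutrophil replicate 1, Neutrophil replicate 2, Monocyte replicate 1 or Monocyte replicate 2 (0.87 to 1.27, adjusted p 0.05 to 0.12). Macrophage markers were called higher in NKT for 11 of 16, with summed intensities of 1656 to 4835 in NKT, 1055 to 1267 in CD4T and 405 to 516 in CD8T, and their part in the level of Tnfrsf21 was not tested.

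NK and NKT cells, which share the NK1.1 gate, differed in 11 of 27 members (40.7%, against 11.1% of all genes, 6.73% higher and 4.39% lower). In NK 4 were higher and 7 lower, with a median of -0.29 over the members and -0.13 over all genes. NK had more of the receptors Tnfrsf21 (3.42 ± 0.36, limma adjusted p 1.4e-06), Tnfrsf13b (2.87 ± 0.44) and Tnfrsf1b (2.72 ± 0.27) and of the ligand Tnfsf13b (2.35 ± 0.45). NKT had more of 5 ligands, Tnfsf11 (-2.22 ± 0.41), Tnfsf8 (-1.91 ± 0.41), Tnfsf10 (-1.90 ± 0.39), Tnfsf14 (-1.90 ± 0.38) and Ltb (-1.86 ± 0.33), and of the receptors Tnfrsf25 (-1.58 ± 0.39) and Tnfrsf18 (-1.24 ± 0.25). In none of the 11 did the arrays overlap, which a call between 2 arrays and 2 makes likely, so it adds no support. Tnfrsf21 and Tnfsf13b, which were also high in Monocyte, moved with the macrophage list, of which 11 of 16 genes were called higher in NK, with summed intensities of 27407 to 31528 in NK and 1656 to 4835 in NKT. The neutrophil list moved too, with 9 of 10 higher in NK, and the part of such cells in these differences was not tested. The T cell markers went the other way, with 9 of 9 lower in NK. The call of Tnfrsf25 ended without NK replicate 2 (-1.52, adjusted p 0.061) or NKT replicate 2 (-1.44, adjusted p 0.072). With the mean of all probe sets the calls of Tnfsf13b (0.94) and Tnfsf11 (-0.92) ended.

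Neutrophil and Monocyte differed in 5 of 27 members, 2 higher and 3 lower in Neutrophil (18.5%, against 12% of all genes, 2.58% higher and 9.46% lower), with a median of -0.25 over the members and -0.08 over all genes. The ligands Ltb (1.69 ± 0.33, limma adjusted p 0.0012) and Tnfsf14 (1.56 ± 0.38) were higher in Neutrophil. Tnfrsf1b (-1.51 ± 0.27), Tnfrsf13b (-1.46 ± 0.44) and the antisense RNA Tnfsf13os (-2.09 ± 0.55) were lower. Tnf, Tnfsf13b, Tnfrsf1a and Tnfrsf21 were not called, with differences of 0.20 ± 0.41, 0.11 ± 0.45, 0.53 ± 0.24 and 0.33 ± 0.36. Of these 5 calls, those of Ltb and Tnfrsf1b held in every fit that left out 1 array. Without Monocyte replicate 2 the calls of Tnfsf14 (1.05, adjusted p 0.13), Tnfrsf13b (-0.83, adjusted p 0.32) and Tnfsf13os (-1.52, adjusted p 0.15) ended. Without Neutrophil replicate 1 those of Tnfsf14 (1.41, adjusted p 0.068) and Tnfrsf13b (-1.24, adjusted p 0.17) ended, and without Neutrophil replicate 2 that of Tnfsf13os (-1.93, adjusted p 0.065). The mean of all probe sets ended the calls of Tnfrsf1b (-0.92), Tnfsf14 (0.82) and Tnfsf13os (-1.01, adjusted p 0.15). Of the neutrophil markers 10 of 10 stood above the median of all values in both populations, with summed intensities of 92244 to 110645 in Neutrophil and 73186 to 88185 in Monocyte, and 7 of 16 macrophage markers were lower in Neutrophil.

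KSL and LinNeg differed in 3 of 27 members, 1 higher and 2 lower in KSL (11.1%, against 5.3% of all genes, 2.95% higher and 2.35% lower), with a median of 0.45 over the members and 0.01 over all genes. Tnfsf10 was higher in KSL (1.71 ± 0.39, limma adjusted p 0.0089), and Tnf (-1.41 ± 0.41, adjusted p 0.038) and Tnfrsf25 (-1.38 ± 0.39, adjusted p 0.036) were lower, both from dim levels. None of the 3 held in every fit without 1 array. Tnfsf10 was not called without KSL replicate 2 (1.27, adjusted p 0.18) or LinNeg replicate 1 (1.38, adjusted p 0.14). Tnf was not called without KSL replicate 1 (-0.96, adjusted p 0.29), LinNeg replicate 1 (-1.39, adjusted p 0.19) or LinNeg replicate 2 (-1.43, adjusted p 0.12). Tnfrsf25 was not called without any 1 of the 4 arrays compared, with adjusted p, for KSL replicates 1 and 2 and then LinNeg replicates 1 and 2, of 0.25, 0.059, 0.072 and 0.23. Tnfrsf21 and Tnfrsf13b had higher means in KSL without a call (1.02 ± 0.36 and 0.84 ± 0.44). LinNeg also held more of the T cell markers (4 of 9 called, summed intensity 704 to 859 against 289 to 307) and of the NK cell markers (7 of 11 called, 1189 to 1622 against 545 to 659), and their part in the level of Tnfrsf25 was not tested. The neutrophil list stood at 4.35 in LinNeg replicate 1 and 7.07 in replicate 2, against 4.15 and 4.47 in KSL (1 of 10 called, summed intensity 219.7 to 3199 against 334 to 479), and 5 of 9 erythroid markers were called lower in KSL. Tnf, whose highest mean was in Neutrophil, was at 51.9 and 50.6 in these LinNeg arrays, and the part of neutrophils in its difference was not tested.

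Erythroblast was set against the mean of the other mature populations. Of 27 members 13 were called, 1 higher and 12 lower (48.1%, against 46% of all genes, 17.5% higher and 28.4% lower), a share near the background. The median was -0.58 over the members and -0.13 over all genes, and 8 of 10 ligands and 4 of 16 receptors were lower. The largest fall was that of Ltb (-7.11 ± 0.25, limma adjusted p 7.6e-15), followed by the receptors Tnfrsf1b (-3.96 ± 0.20), Tnfrsf18 (-3.25 ± 0.19) and Tnfrsf13b (-3.09 ± 0.33) and the ligand Tnfsf14 (-3.14 ± 0.29). Tnfsf13b, Tnfsf10, Tnfrsf1a, Tnf, Lta, Tnfsf8 and Tnfsf11 fell by 1.15 to 2.52 on the log2 scale. For Tnfsf14, Tnfsf13b, Tnfsf10, Tnfrsf1a, Lta, Tnfsf8 and Tnfsf11 at least 1 other mature array was as low as those of Erythroblast. Tnfrsf23 was the member called higher (1.32 ± 0.35), at 46.0 and 45.8. The next population, CD4T, was at 35.1 and 39.3, lower by only 0.26 on the log2 scale. A probe set shared by Tnfrsf22 and Tnfrsf23, used in no comparison, went the other way. It had a mean of 3.736 in Erythroblast, against 41.76 in CD4T, 40.41 in Neutrophil and 49.14 in Monocyte. The call of Tnfsf8 ended without Erythroblast replicate 2 (-0.51). With the pseudocount at the median the calls of Lta, Tnfsf8, Tnfsf11 and Tnfrsf23 ended, and with the mean of all probe sets that of Tnfsf11.

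The rest of the pathway was read through superfamily genes with other names, TRAF adaptors with proximal signalling genes, and the NF-kB pathway. Between B and T cells Cd40, the receptor through which T cells help B cells, was at 957 and 1035 in B and differed by 5.81 ± 0.43 (limma adjusted p 4.4e-09). Cd27, a costimulatory receptor (-5.16 ± 0.34), Fasl, the Fas ligand (-4.15 ± 0.31), and Traf1, an adaptor induced by NF-kB (-3.46 ± 0.20), were lower in B. Of 10 NF-kB genes tested 4 were higher in B and 0 lower (40% called, against 12.8% of all genes). Nfkbie, an inhibitor of NF-kB, stood at 2.01 ± 0.19 and Bcl3 at 1.94 ± 0.27. The median of the 10 was 0.57, against -0.06 over all genes. Of 16 adaptor and proximal genes 1 was higher, Birc3, the ubiquitin ligase cIAP2 (1.63 ± 0.17), and 1 lower, Traf1. This share of 12.5% is near the 12.8% of all genes. Between CD4T and CD8T limma called 0 of 16 and 0 of 10, beside 3.16% of all genes, with 5 and 3 at an unadjusted p under 0.05. Between NKT and T cells it also called 0 of 16 and 0 of 10, beside 3.22% of all genes, with 4 and 1. At such shares 0 calls in lists of this size say little about the pathway. Between the lymphoid and myeloid populations 3 of 16 and 3 of 10 were called (18.8% and 30%, against 29.4% of all genes, near or below the background), each higher in lymphoid cells, with Traf1 at 3.89 ± 0.14. Between NK and NKT 4 of 16 were called (25%, against 11.1% of all genes), Tank higher in NK (1.55 ± 0.32) and Traf1, Traf5 and Cyld lower. Fasl was higher in NKT than in T cells (1.79 ± 0.31), at 1243 and 896. Between Neutrophil and Monocyte Fas (1.82 ± 0.43) was higher in Neutrophil. Between KSL and LinNeg Nfkbie and Bcl3 were higher in KSL (1.41 ± 0.22 and 1.35 ± 0.31), as was Cd27 (1.35 ± 0.39), and Fasl was lower (-2.41 ± 0.36). In Erythroblast 11 of 16 adaptor and proximal genes were lower and 1 higher (median -1.73), and 6 of 10 NF-kB genes were lower (median -2.01), beside 28.4% of all genes lower, 17.5% higher and an all-gene median of -0.13, with Birc3 at 12.2 and 10.8.

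The population of the highest mean was set side by side for ligands and their receptors, as a description. Of 21 known pairs listed, 16 had both genes read by a probe set of their own, and in 1 of these, Tnf with Tnfrsf1a, both had their highest mean in the same population, Neutrophil. In these pairs the receptors Tnfrsf10b, Tnfrsf11b and Tnfrsf14 were not tested, and Tnfrsf8, Tnfrsf11a and Tnfrsf17 missed the F test threshold. Tnfsf13b had its highest mean in Neutrophil and its receptors Tnfrsf13c and Tnfrsf13b in B. Tnfsf11 was highest in CD4T, and Tnfsf9, Tnfsf10 and Tnfsf14 in NKT. Ltb was highest in CD4T and the lymphotoxin beta receptor gene Ltbr in Monocyte, at 125 and 145. These are orders of means with no test. For pairs with a dim gene, such as Tnfsf8 with Tnfrsf8, the highest population is within the spread of others. Brighter genes can be as unsettled. Neutrophil minus Monocyte was not called for Tnf (0.20 ± 0.41), Tnfrsf1a (0.53 ± 0.24) or Tnfsf13b (0.11 ± 0.45). Ltb was higher in CD4T than in NKT by only 0.09 on the log2 scale. The count of pairs that share a population is therefore not settled.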

How the data were processed

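Expression was read on 20 arrays, 2 for each of 10 sorted populations, from RNA of 3000 cells amplified by two-cycle cDNA synthesis, per the labels' protocols. The deposited values are linear intensities per probe set, with a 2% trimmed mean of 100 on every array. For the software, background correction and scaling behind them, the sources used here give no name. Of 45101 probe sets, 64 controls were left out, 34945 had 1 platform symbol, 932 several and 9160 none. Symbols were checked through Entrez IDs in RefSeq's GRCm38.p6 gene table, where 30 of 30 members matched and 0 had changed.

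Each gene was read by its brightest single-symbol probe set. The log2(intensity + 6.75) values, where 6.75 is the 25th percentile of all values, were fitted for all 20 arrays in 1 model with limma 3.58.1 in R 4.3.3 (lmFit, and eBayes with a trend; residual degrees of freedom 10, prior 8.46). Genes whose highest population mean was above 4.89 on this scale were tested, 14044 in all. The fit was tested on simulated data: of 200 genes given a log2 change of 2 between CD4T and CD8T, 188 (94%) were called, with 3 false calls over 13029 genes. The changed genes were drawn from the brighter genes only. Most members tested are dimmer, with mean log2 levels such as 4.36 for Tnfsf11 and 5.51 for Tnfrsf25, so this share does not carry over to them. The other genes were simulated with no difference between populations and with the same spread in each. The 3 false calls therefore give no rate for the real arrays. The number of arrays limits the precision. Same-numbered replicates did not deviate together (45 pairs of populations, correlations from -0.09 to 0.21, 1 above 0.1), so the numbers were not taken to pair samples.

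Named differences were all called members in the 8 comparisons, with members not called given where they mark an order of levels. Up to 6 called pathway genes per comparison were named by size, and Birc3 was named in addition between B and T cells. The members and gene lists were chosen with earlier results of these data known.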

Additional observations from a re-analysis of the deposited data

How the results depend on the processing

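Of the 73 named differences, 0 reversed and 35 were called under every setting run. Calls lost numbered 36 under limma's treat against a log2 difference of 1, 13 with the pseudocount at the median, 11 with the mean of all probe sets, 5 without the filter, 5 with the pseudocount at the 5th percentile, 4 without the variance trend, 2 under quantile normalization and 1 under array median centring. With the replicate number as a block 72 of 73 calls held, and that of Tnfrsf13b between NKT and T cells did not (-1.36, adjusted p 0.054 in limma); the count for NKT against T cells was then 4 members, and no other count of members changed under this pairing. Under treat, which by construction demands more, members called fell to 2 (CD4T against CD8T), 0 (NKT against T), 3 (NK against NKT), 0 (Neutrophil against Monocyte), 0 (KSL against LinNeg), 8 (Erythroblast) and 3 (restricted). All genes called were then 2421 (lymphoid against myeloid), 726 (B against T), 49, 60, 460, 205, 68, 4026 and 542 in the same order. Members called were 3 for NKT against T without the filter, 2 for Neutrophil against Monocyte with the mean of all probe sets, 1 for KSL against LinNeg without the filter or with either other pseudocount, and 3 restricted with the pseudocount at the 5th percentile, where the cause was not tested. Leaving out 1 array at a time, members called ran from 20 to 22 (F test), 14 to 17 (lymphoid against myeloid), 12 to 14 (B against T), 5 to 7 (CD4T against CD8T), 1 to 5 (NKT against T), 10 to 11 (NK against NKT), 2 to 6 (Neutrophil against Monocyte), 0 to 3 (KSL against LinNeg), 13 to 14 (Erythroblast) and 4 to 6 (restricted). All genes called ran from 10446 to 10736, 4066 to 4279, 1507 to 1837, 213 to 491, 220 to 494, 1145 to 1612, 1176 to 1771, 294 to 789, 6133 to 6486 and 1361 to 1487 in that order. The lowest counts were without CD4T replicate 1 (213), NKT replicate 2 (220 genes, 1 member), KSL replicate 2 (294), LinNeg replicate 1 (0 members) and Monocyte replicate 2 (2 members). A population left with 1 array is assumed to vary like the others. Scaling moved the median of all genes by over 0.1 for Erythroblast (0.16 under quantile normalization, 0.12 under centring) and for NK against NKT (0.13 under centring). Dim members, with means near the filter of 22.9, are read with the least precision.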

Other observations

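Probe sets that carry several symbols name no single gene and entered no comparison. The probe set shared by Tnfsfm13, Tnfsf13 and Tnfsf12 had means of 361.1 in Monocyte, 336.9 in NK, 109.5 in LinNeg and 83.16 in KSL, and of 47.68 or less in the other populations. The probe set shared by Tnfsfm13 and Tnfsf12 had a mean of 131.2 in NK and of 14.83 to 57.87 elsewhere. That shared by Tnfrsf22 and Tnfrsf23 had means of 49.14 in Monocyte, 41.76 in CD4T and 40.41 in Neutrophil. Its means in Erythroblast and B were 3.736 and 2.733. Tnfsf13 encodes APRIL, a ligand of TACI and BCMA, and Tnfsf12 encodes TWEAK, and neither has a probe set of its own among those used here. Of the 19 further probe sets of members, 8 followed the one used with r of 0.6 or more over the 20 arrays.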
